A study of Mus musculus with 12 samples.

Results

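The 7 genes described here encode chemokine receptors that macrophages can carry, namely Ccr1, Ccr2, Ccr3, Ccr7, Ccrl2, Cx3cr1 and Cxcr4. They were taken by name from the 43131 genes of the deposited count table, where all 7 were found, and each gene is represented by its transcript with the highest total count. The libraries came from bone marrow-derived macrophages (BMDMs) of C57BL/6 mice, which were cultured for 7 days in medium holding M-CSF at 50 ng/mL. Each of 4 column headings held 3 libraries, which crossed the genotypes tlr4f/f and tlr4f/f-lysM-cre with the treatments LPS- and LPS+. All groups carried floxed tlr4 alleles. The Cre of tlr4f/f-lysM-cre mice is made from the lysM locus, which is the gene Lyz2, and removes floxed tlr4 in cells of the myeloid lineage. Treatment lasted 6 h, with LPS at 1 µg/mL in the LPS+ groups and no LPS in the LPS- groups. The age of the marrow donors was not given in the sources used here. The labels do not say that each library came from a separate mouse, so p-values measure only the spread between these libraries, which may be technical.

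Chemokine receptors span the membrane several times, couple to Gi proteins and steer a cell up a gradient of their ligand. Ccr2 brings inflammatory monocytes out of the marrow and into tissue, while Ccr1, Ccr3 and Cx3cr1 act in recruitment, adhesion and survival of myeloid cells. Ccr7 guides antigen-presenting cells to lymph nodes, Cxcr4 retains leukocytes in the marrow through Cxcl12, and Ccrl2 is an atypical receptor that binds chemerin and is not known to signal on its own.

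The genes that bear on the headings were read first, as CPM, the counts scaled to library size with TMM factors. Tlr4, the deleted gene, was at 76.7, 147 and 121 CPM under LPS- tlr4f/f and at 117, 95.1 and 116 under LPS- tlr4f/f-lysM-cre. Its level was 31.1, 27.8 and 24.3 CPM under LPS+ tlr4f/f and 27.5, 24.6 and 24.8 under LPS+ tlr4f/f-lysM-cre. Tlr4 was thus lower under both LPS+ headings, and its ranges overlapped between the genotype headings. Lyz2, which the lysM-cre allele interrupts, was at 5950.3 to 23264 CPM in the 6 libraries headed LPS- and at 10.4 to 75.6 in the 6 headed LPS+. Il1b, a cytokine gene that LPS induces, was at 1639.9 to 8219.9 CPM in the 6 tlr4f/f-lysM-cre libraries and at 0.0748 to 6.93 in the 6 headed tlr4f/f. These levels go against the headings. If the heading LPS- tlr4f/f-lysM-cre were exchanged with the heading LPS+ tlr4f/f, the libraries low in Tlr4 and Lyz2 would be those of tlr4f/f-lysM-cre and the libraries high in Il1b would be those given LPS. Whether the headings were exchanged was not settled by these values, so groups are called by their heading and both readings are given for each comparison.

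**Figure D1:**
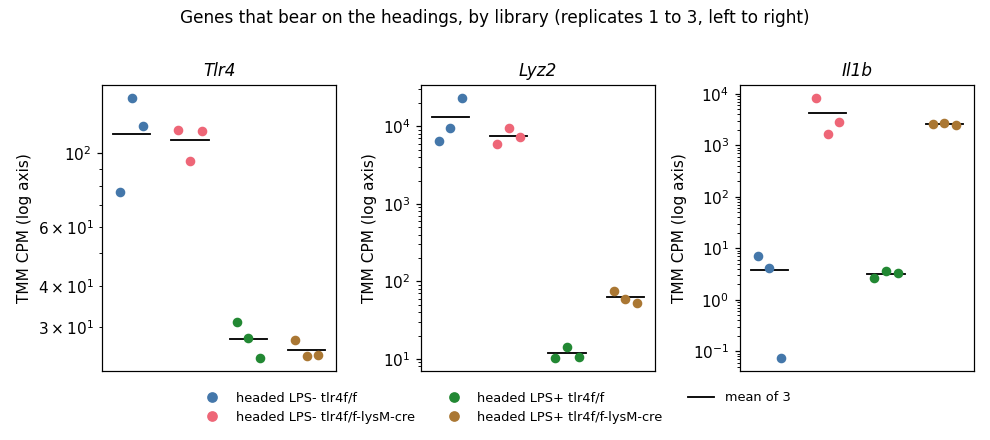
TMM CPM of Tlr4, Lyz2 and Il1b on log axes, with 1 point per library and a line at the mean of 3. Tlr4 and Lyz2 separate the LPS- from the LPS+ headings, and Il1b separates the tlr4f/f from the tlr4f/f-lysM-cre headings.

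The 8 macrophage markers summed to 6250.1 to 7475 CPM under LPS- tlr4f/f, 10872 to 13733 under LPS- tlr4f/f-lysM-cre, 4509 to 4814 under LPS+ tlr4f/f and 7800.1 to 8008 under LPS+ tlr4f/f-lysM-cre. Their sum was thus high in every library and higher under the tlr4f/f-lysM-cre headings, but the single markers did not all go this way. Between the LPS+ headings Adgre1, Csf1r, Mertk, Fcgr1 and Cd14 were higher under tlr4f/f-lysM-cre, Cd68 and Mrc1 were lower, and Itgam overlapped. Between the LPS- headings Adgre1 and Cd14 were higher under tlr4f/f-lysM-cre, and the ranges of the other markers overlapped. The part of these markers in the receptor values was not tested. In bulk RNA, fewer cells of a type and less RNA per cell cannot be told apart. The 6 fibroblast and stroma markers summed to 667, 62.1 and 9.10 CPM under LPS- tlr4f/f, to 981, 189 and 1509.7 under LPS- tlr4f/f-lysM-cre and to 20.4 to 57.0 in the libraries headed LPS+. The sums of the other lists were 0.635 to 192 CPM for 8 neutrophil markers, 0.131 to 68.9 for 6 monocyte markers, 0.239 to 6.63 for 5 T lymphocyte markers, 0.374 to 1.96 for 5 B lymphocyte markers and 0.0934 to 2.79 for 6 mast cell and basophil markers, with Ly6g, Fcer1a, Cd3e, Cd3d and Cd2 at 3 counts or fewer in every library. The neutrophil sum was highest in replicate 3 of LPS- tlr4f/f-lysM-cre. Replicate 3 of LPS- tlr4f/f had the lowest or the highest level of its group in several receptors, and values without it are given for Ccr1, Ccr3, Ccrl2, Cx3cr1 and Cxcr4. Depth was 33577087 to 56445268 counts per library.

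The clearest differences were those of Ccrl2 and Cxcr4, which went opposite ways between the genotype headings. Ccrl2 was 13.03-fold higher and Cxcr4 27.6-fold lower under LPS+ tlr4f/f-lysM-cre than under LPS+ tlr4f/f. In the same comparison Ccr2 was 3.07-fold lower and Cx3cr1 3.60-fold higher. Ccr1 did not pass a test in any comparison.

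Ccr1, Ccr3 and Ccr2 lie in this order on chromosome 9 of mm10 (GRCm38), within 151 kb. Ccr1 lies at chr9:123962124-123968692 on the minus strand, Ccr3 at chr9:124021972-124031689 on the plus strand and Ccr2 at chr9:124101950-124113557 on the plus strand. Ccrl2 (chr9:111054486-111057519) and Cx3cr1 (chr9:119901616-120069879) are on the minus strand of the same chromosome. Cxcr4 is at chr1:128588199-128592293 and Ccr7 at chr11:99144196-99155077, both on the minus strand. Between the LPS+ headings Ccr2 fell, while Ccr3 and Ccr1 in the same 151 kb had log2 fold changes of 0.83 and 0.10 and were not called. The annotated span of Cx3cr1 overlaps 9 other genes, among them Wdr48 on the opposite strand and Gorasp1 on the same strand, and whether the counting used strand is not given in the sources used here.

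Ccrl2 had the largest rise and Cxcr4 the largest fall, so the bases before their transcription starts are shown, beside those of Ccr3 as a receptor that changed less than 2-fold where both of them changed. They are RefSeq promoter sequences of GRCm38.p6 on the strand of the gene, at chr9:111057520-111057768 (Ccrl2, minus strand), chr1:128592300-128592549 (Cxcr4, minus strand) and chr9:124021721-124021970 (Ccr3, plus strand). The Ccrl2 window precedes the outermost of its 3 RefSeq starts and has 249 bases because 1 base next to the start belongs to an annotated exon. Capitals mark matches on either strand to an NF-kB core written GGNNTTTCC, an AP-1 site written TGANTCA and a PU.1 core written GAGGAA, whose letters were chosen after the sequences had been seen.
Ccrl2: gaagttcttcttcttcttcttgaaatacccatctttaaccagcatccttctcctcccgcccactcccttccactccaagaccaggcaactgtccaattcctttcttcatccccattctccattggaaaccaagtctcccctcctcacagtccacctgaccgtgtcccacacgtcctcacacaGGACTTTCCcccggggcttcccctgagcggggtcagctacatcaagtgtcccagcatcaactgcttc
Cxcr4: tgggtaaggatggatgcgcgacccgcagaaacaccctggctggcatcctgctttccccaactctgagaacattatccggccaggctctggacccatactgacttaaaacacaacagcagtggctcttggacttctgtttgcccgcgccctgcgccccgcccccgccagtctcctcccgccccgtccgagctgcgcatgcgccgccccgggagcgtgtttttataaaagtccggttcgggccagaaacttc
Ccr3: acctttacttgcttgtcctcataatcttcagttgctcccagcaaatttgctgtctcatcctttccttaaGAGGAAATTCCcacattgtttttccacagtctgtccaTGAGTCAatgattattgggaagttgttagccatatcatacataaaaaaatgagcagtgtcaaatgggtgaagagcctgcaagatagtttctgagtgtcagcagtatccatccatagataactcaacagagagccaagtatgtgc
Ccrl2 held 1 NF-kB core, which began 68 bases before the start. Cxcr4 held none of these motifs and no match to GAAANNGAAA, an interferon response element. Ccr3 held an NF-kB core 179 bases before the start, which shares letters with a PU.1 core at 181 bases, and an AP-1 site at 144 bases. Of 32851 promoter windows, 4.93% held the NF-kB core, 6.75% the AP-1 site, 2.98% the interferon element and 23.3% the PU.1 core. A match describes letters in the window only.

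Ccr1, a receptor for Ccl3, Ccl5 and Ccl9, was at 18.1, 53.2 and 2.09 CPM under LPS- tlr4f/f, at 31.0, 39.4 and 87.6 under LPS- tlr4f/f-lysM-cre, at 40.3, 41.6 and 59.6 under LPS+ tlr4f/f and at 47.9, 37.4 and 66.8 under LPS+ tlr4f/f-lysM-cre. All 4 ranges overlapped, and the widest was that of LPS- tlr4f/f, where replicate 2 was 25.4-fold above replicate 3. The log2 fold change of tlr4f/f-lysM-cre over tlr4f/f was 0.10 between the LPS+ headings (standard error 0.287, adjusted p = 0.797). It was 1.10 between the LPS- headings with a standard error of 1.01 (adjusted p = 0.423), so a difference of that size was not detectable there. Without replicate 2 or 3 of LPS- tlr4f/f it was 2.37 or 0.55, and without replicate 3 of LPS- tlr4f/f-lysM-cre it was 0.54, none of which passed.

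Ccr2, the receptor of Ccl2, was at 39.1, 23.7 and 26.2 CPM under LPS- tlr4f/f, at 11.6, 6.51 and 3.55 under LPS- tlr4f/f-lysM-cre, at 43.2, 37.4 and 37.4 under LPS+ tlr4f/f and at 15.0, 10.1 and 13.3 under LPS+ tlr4f/f-lysM-cre. Every library headed tlr4f/f was above every library headed tlr4f/f-lysM-cre. Ccr2 fell by 1.62 on the log2 scale between the LPS+ headings (standard error 0.130, adjusted p = 4.25e-06, by the quasi-likelihood test of edgeR, Benjamini-Hochberg adjusted over all genes). Between the LPS- headings the log2 fold change was -2.05 (standard error 0.454), and its adjusted p of 0.0146 missed the limit of 0.01. By DESeq2 it passed there, with an adjusted p of 0.000163. From the LPS- to the LPS+ heading the log2 fold change of Ccr2 was 0.43 for tlr4f/f (adjusted p = 0.250) and 0.84 for tlr4f/f-lysM-cre (adjusted p = 0.176).

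Ccr3, the eotaxin receptor best known from eosinophils, was at 35.2, 14.4 and 0.206 CPM under LPS- tlr4f/f, at 19.1, 9.10 and 27.8 under LPS- tlr4f/f-lysM-cre, at 7.14, 5.81 and 8.45 under LPS+ tlr4f/f and at 11.7, 10.8 and 15.9 under LPS+ tlr4f/f-lysM-cre. Of the groups compared, only those headed LPS+ did not overlap, with tlr4f/f-lysM-cre the higher. There the log2 fold change was 0.83 (standard error 0.176, adjusted p = 0.00231), which passed the limit on p and not that of a 2-fold change. Replicate 3 of LPS- tlr4f/f had 11 counts of Ccr3 and was 171-fold below replicate 1. Without it the log2 fold change between the LPS- headings went from 0.16 to -0.42 (adjusted p = 0.618). Within both LPS- groups, libraries had the same order in Ccr3 as in the sums of the fibroblast and stroma, neutrophil and monocyte markers. The part of these markers in the Ccr3 values was not tested. The 5 eosinophil markers summed to 0.859 to 30.3 CPM. Siglecf, which macrophages can also express, reached 30.1 CPM, while Epx and Prg2, which define eosinophils, reached 0.110 and 0.374 CPM.

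Ccr7 was the lowest of the receptors per length in 3 of the 4 groups. It was at 0.376, 0.144 and 0 CPM under LPS- tlr4f/f, at 8.67, 1.85 and 0.249 under LPS- tlr4f/f-lysM-cre, at 0.0838, 0.179 and 0.189 under LPS+ tlr4f/f and at 0.509, 0.331 and 0.689 under LPS+ tlr4f/f-lysM-cre. These levels rest on 0 to 22, 8 to 323, 4 to 11 and 12 to 31 counts per library. The LPS+ headings did not overlap, whereas the LPS- headings did. Ccr7 was 3.34-fold higher under LPS+ tlr4f/f-lysM-cre than under LPS+ tlr4f/f (log2 fold change 1.74, standard error 0.492, adjusted p = 0.00838). This call was lost without any 1 of 5 of the 6 libraries. The adjusted p was 0.0413, 0.0209 and 0.0170 without replicate 1, 2 or 3 of LPS+ tlr4f/f, and 0.0221, 0.00764 and 0.0452 without replicate 1, 2 or 3 of LPS+ tlr4f/f-lysM-cre. Its log2 fold change between the LPS- headings was 4.33 (standard error 1.62, adjusted p = 0.0785), and 2.59 (adjusted p = 0.257) without replicate 1 of LPS- tlr4f/f-lysM-cre, the library with 323 counts. The 8 dendritic cell markers summed to 650.1, 218 and 70.7 CPM under LPS- tlr4f/f-lysM-cre. Their sum was 89.9 to 129 CPM under LPS+ tlr4f/f-lysM-cre and 0.899 to 9.03 in the 6 libraries headed tlr4f/f. Its order over libraries was that of Ccr7 under LPS- tlr4f/f-lysM-cre alone, where the macrophage sum had that order too. Fscn1 reached 289 CPM and Ccl22 361 CPM, both of which activated macrophages can also express, while Cd209a reached 0.0688 CPM and Flt3 had 3 counts or fewer in every library. The part of these markers in the Ccr7 values was not tested.

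**Figure D2:**
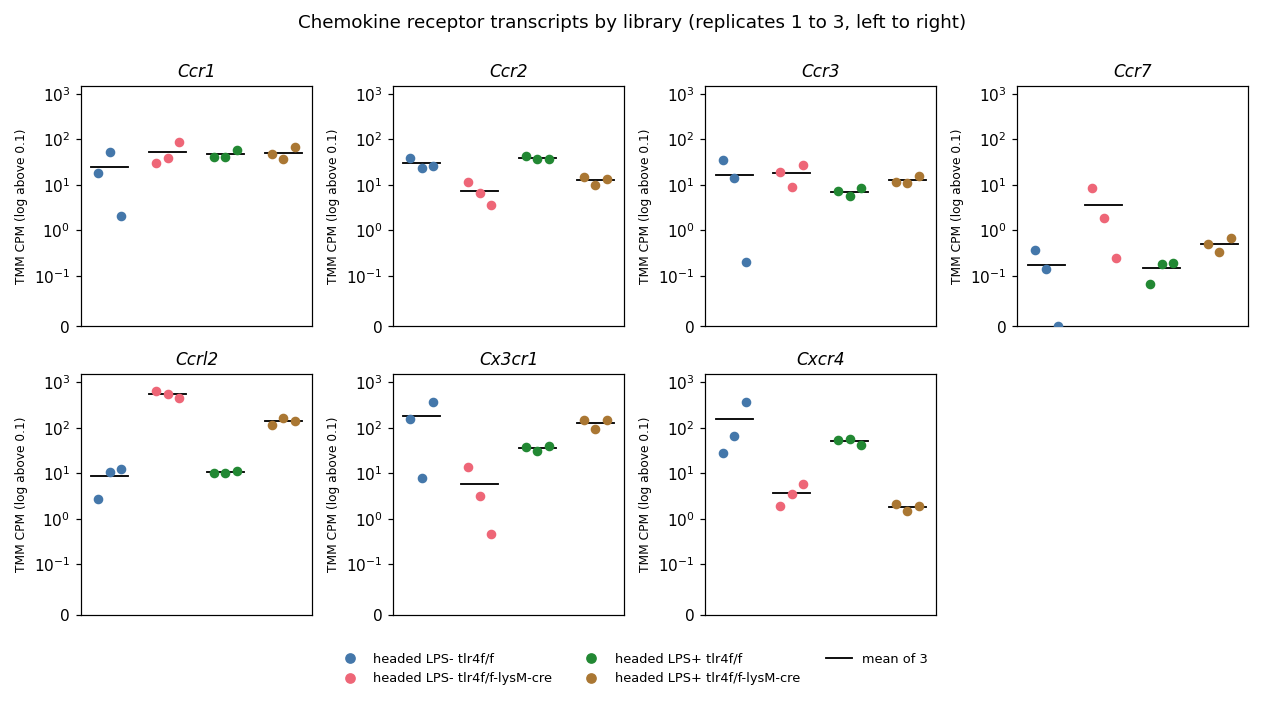
TMM CPM of the 7 receptor genes, with 1 point per library, replicates 1 to 3 from left to right in each group and a line at the mean of 3, on an axis that is logarithmic above 0.1 CPM. Ccrl2 is higher, and Cxcr4 and Ccr2 are lower, in each of the 6 tlr4f/f-lysM-cre libraries than in any of the 6 tlr4f/f libraries.

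Ccrl2 was at 2.79, 10.7 and 12.7 CPM under LPS- tlr4f/f, at 643, 559.9 and 446 under LPS- tlr4f/f-lysM-cre, at 10.3, 10.4 and 11.3 under LPS+ tlr4f/f and at 119, 162 and 139 under LPS+ tlr4f/f-lysM-cre. The tlr4f/f headings overlapped, and each tlr4f/f-lysM-cre heading was apart from all the rest. Ccrl2 rose 62.5-fold between the LPS- headings (log2 fold change 5.97, standard error 0.639, adjusted p = 0.00139) and 13.03-fold between the LPS+ headings (log2 fold change 3.70, standard error 0.122, adjusted p = 2.72e-08). From the LPS- to the LPS+ heading of tlr4f/f-lysM-cre it fell by 1.97 on the log2 scale (standard error 0.185, adjusted p = 0.00161). That last call was lost without replicate 1, 2 or 3 of LPS+ tlr4f/f-lysM-cre, at adjusted p of 0.0175, 0.0166 and 0.0195, in fits that called 4, 7 and 15 of all genes.

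Cx3cr1, the receptor of the membrane-bound ligand Cx3cl1 and a marker of patrolling monocytes and many resident macrophages, differed in direction between the headings. It was at 159, 7.96 and 370.1 CPM under LPS- tlr4f/f, at 13.7, 3.22 and 0.467 under LPS- tlr4f/f-lysM-cre, at 37.6, 30.6 and 40.7 under LPS+ tlr4f/f and at 147, 96.5 and 151 under LPS+ tlr4f/f-lysM-cre. The LPS+ headings did not overlap, and both lay above LPS- tlr4f/f-lysM-cre. The LPS- headings overlapped through replicate 2 of tlr4f/f, which was 46.5-fold below replicate 3 of its group. Cx3cr1 rose 3.60-fold between the LPS+ headings (log2 fold change 1.85, standard error 0.222, adjusted p = 0.00116). Its log2 fold change between the LPS- headings was -4.95 (standard error 1.65, adjusted p = 0.0567). It was -3.87 without replicate 3 of LPS- tlr4f/f and -6.58 without replicate 1 of LPS- tlr4f/f-lysM-cre, and did not pass without any 1 library. From the LPS- to the LPS+ heading of tlr4f/f-lysM-cre it was 4.50 (standard error 1.01, adjusted p = 0.0204), and without replicate 1 of LPS- tlr4f/f-lysM-cre it was 6.15 and passed (adjusted p = 0.00529). The interaction of genotype and LPS, which tests the difference between these contrasts, was 6.80 on the log2 scale (standard error 1.68, adjusted p = 0.0379).

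Cxcr4, the receptor of Cxcl12, was at 27.7, 67.4 and 375 CPM under LPS- tlr4f/f, at 1.96, 3.44 and 5.98 under LPS- tlr4f/f-lysM-cre, at 55.0, 57.3 and 41.7 under LPS+ tlr4f/f and at 2.13, 1.49 and 1.93 under LPS+ tlr4f/f-lysM-cre. All 6 libraries headed tlr4f/f were above all 6 headed tlr4f/f-lysM-cre. Cxcr4 fell by 4.78 on the log2 scale between the LPS+ headings (standard error 0.167, adjusted p = 1.47e-08). The log2 fold change between the LPS- headings was -5.37 with a standard error of 1.13, and its adjusted p of 0.0125 missed the limit of 0.01. Without replicate 1 of LPS- tlr4f/f it was -5.87 (adjusted p = 0.00855) and without replicate 3 it was -3.67 (adjusted p = 0.00948), and both passed. From LPS- to LPS+ tlr4f/f it was -1.58 (adjusted p = 0.329), and without replicate 3 of LPS- tlr4f/f it was 0.13 (adjusted p = 0.853).

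Between the LPS+ headings, 5 of the 7 receptors passed, which means that they changed more than 2-fold at an adjusted p below 0.01, limits taken from the study, beside 21.7% of 14540 genes tested. Ccrl2, Cx3cr1 and Ccr7 were the 3 higher under tlr4f/f-lysM-cre, where 10.8% of all genes were higher, and Cxcr4 and Ccr2 the 2 lower, where 10.9% were lower. The ranges of 6 of the 7 did not overlap, beside those of 64.4% of 15775 genes, and 6 of the 7 had an adjusted p below 0.05, beside 61.4%. As headed, this is the genotype difference in LPS-treated BMDMs, and with the headings exchanged it is the response of tlr4f/f-lysM-cre BMDMs to LPS. The median log2 fold change of the 7 was 0.83, beside -0.02 over all genes tested. In a fit of all 12 libraries, which share 1 estimate of the spread, 3 of the 7 passed, without Ccr7 (adjusted p = 0.319) and Cx3cr1 (adjusted p = 0.243). The share of all genes called in that fit is not given here.

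Between the LPS- headings, 1 of the 7 passed, which was Ccrl2, beside 17.1% of 14635 genes (9.25% higher and 7.81% lower). The ranges of Ccr2, Ccrl2 and Cxcr4, 3 of the 7, did not overlap, beside those of 52.2% of 15775 genes, and the same 3 had an adjusted p below 0.05, beside 37.3%. As headed, this is the genotype difference without LPS, and with the headings exchanged it is the response of tlr4f/f BMDMs to LPS. The standard errors of Ccr7, Cx3cr1 and Cxcr4 were 1.62, 1.65 and 1.13 here, against 0.492, 0.222 and 0.167 between the LPS+ headings. The median log2 fold change of the 7 was 0.16, beside -0.08 over all genes. DESeq2 called 5 of the 7, with Ccr2, Ccr7, Cx3cr1 and Cxcr4 beside Ccrl2. Its share over all genes is not given here, so the higher count cannot be read as particular to the receptors.

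Between the tlr4f/f headings, none of the 6 receptors tested passed by edgeR or by DESeq2, and none had an unadjusted p below 0.05. Of 14701 genes 0% passed by edgeR, 1.27% had an adjusted p below 0.05, 3624 had an unadjusted p below 0.05 and DESeq2 called 493. Ccr7 was too low to be tested. The ranges of all 6 overlapped, while those of 34% of 15775 genes did not. As headed, this is the response of tlr4f/f BMDMs to LPS, and with the headings exchanged it is the genotype difference without LPS. The median of the 6 was -0.44, beside -0.03 over all genes. Ccr2 had the smallest standard error, 0.205, and the log2 fold change of Ccrl2 was 0.32 with a standard error of 0.507, or -0.10 and 0.68 without replicate 1 or 3 of LPS- tlr4f/f.

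Between the tlr4f/f-lysM-cre headings, 1 of the 7 passed, which was Ccrl2 with a fall, beside 6.08% of 14234 genes (2.42% higher and 3.65% lower). The ranges of Ccrl2 and Cx3cr1 did not overlap, beside those of 45.5% of 15775 genes, and these 2 had an adjusted p below 0.05, beside 26.7%. As headed, this is the response of tlr4f/f-lysM-cre BMDMs to LPS, and with the headings exchanged it is the genotype difference in LPS-treated BMDMs. The log2 fold change of Ccr7 was -2.80 (standard error 1.11, adjusted p = 0.109), or -1.03 without replicate 1 of LPS- tlr4f/f-lysM-cre, and that of Cxcr4 was -1.03 (standard error 0.432, adjusted p = 0.124). The median of the 7 was -0.55, beside 0.03 over all genes. DESeq2 called 3 of the 7, with Ccr7 and Cx3cr1 beside Ccrl2, and its share over all genes is not given here either.

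The interaction of genotype and LPS has the same value under both readings. By edgeR none of the 7 passed, beside 1.04% of 15775 genes (0.659% with a higher and 0.38% with a lower value). An unadjusted p below 0.05 was found for 2, and DESeq2 called the same 2, counts whose shares over all genes are not given here. These 2 were Cx3cr1 and Ccrl2 (log2 value -2.26, standard error 0.581, adjusted p = 0.0434), whose adjusted p was below 0.05, beside 6.99% of all genes. Each group enters 2 of the 4 comparisons, so the values of a receptor in them are not independent.

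**Figure D3:**
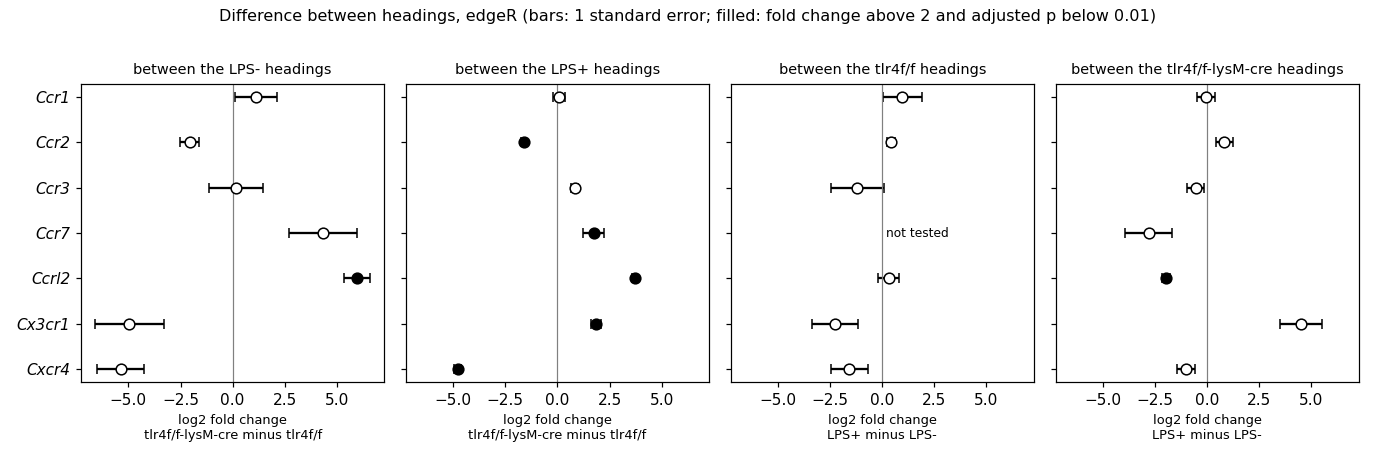
Log2 fold change of the 7 receptors from edgeR in each comparison of 6 libraries, with bars of 1 standard error and filled points for changes of more than 2-fold at an adjusted p below 0.01. Ccrl2 lies to the right and Cxcr4 and Ccr2 to the left in both comparisons between genotype headings, while Cx3cr1 is at -4.95 in one and 1.85 in the other.

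Levels of different receptors were compared as CPM per kb of transcript. Under LPS- tlr4f/f, Cxcr4 (86.4 ± 105 CPM per kb, SD, n = 3) and Cx3cr1 (47.7 ± 48.5) had the highest means. Each receptor in that order overlapped with the next down to Ccrl2, and Ccr7 alone, at 0.0879 ± 0.0961 CPM per kb, was apart from its neighbour. Under LPS+ tlr4f/f, Cxcr4 led with 28.3 ± 4.65 CPM per kb, followed by Ccr1 at 16.7 ± 3.80 and Ccr2 at 10.8 ± 0.930, and of all neighbours in that order only Ccr2 and Cx3cr1 overlapped. Under both tlr4f/f-lysM-cre headings Ccrl2 was first and apart from the rest, at 260.3 ± 46.9 CPM per kb for LPS- and 66.2 ± 10.3 for LPS+. The next was Ccr1 (18.6 ± 10.8) for LPS- and Cx3cr1 (35.0 ± 8.10) for LPS+. Cxcr4 was at 2.09 ± 1.12 CPM per kb under LPS- tlr4f/f-lysM-cre, where the receptors from Ccr3 down to Cx3cr1 overlapped with their neighbours. It was at 1.02 ± 0.180 under LPS+ tlr4f/f-lysM-cre, where only Ccr7 was lower and only Ccr3 and Ccr2 overlapped.

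The spread between the libraries of a heading was uneven. Under both LPS+ headings the highest library was at most 2.26-fold above the lowest for any receptor, where the median over genes with at least 10 counts in every library was 1.14-fold and 1.15-fold. Under LPS- tlr4f/f the ratio was above 5-fold for Ccr1, Ccr3, Cx3cr1 and Cxcr4, as it was for 5.36% of 13402 genes. Under LPS- tlr4f/f-lysM-cre it was 34.8-fold for Ccr7 and 29.2-fold for Cx3cr1. Replicate 3 of LPS- tlr4f/f had the lowest Ccr1, Ccr3 and Ccr7 and the highest Ccrl2, Cx3cr1 and Cxcr4 of its group. Of the 12 libraries it had the lowest sums of fibroblast and stroma, neutrophil, monocyte, B lymphocyte, and mast cell and basophil markers.

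**Figure D4:**
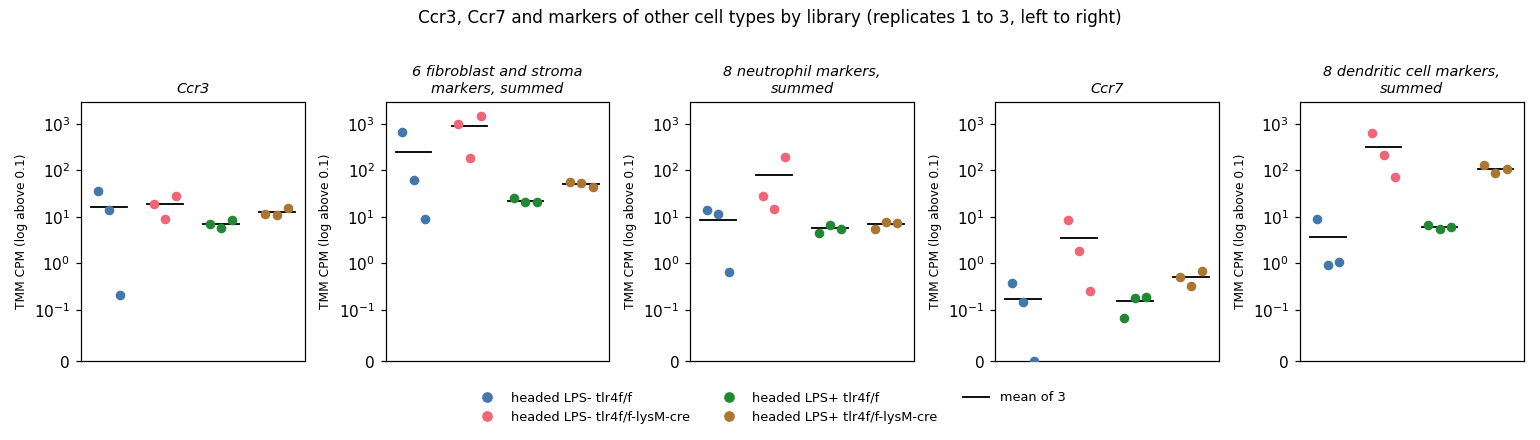
TMM CPM of Ccr3 and Ccr7 and summed TMM CPM of markers of fibroblasts and stroma, neutrophils and dendritic cells, with 1 point per library and a line at the mean of 3, on an axis that is logarithmic above 0.1 CPM. Within each LPS- group the libraries have the same order in Ccr3 as in the fibroblast and stroma sum and in the neutrophil sum. The dendritic cell sum is higher under both tlr4f/f-lysM-cre headings.

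Of 16 listed ligands of these receptors, 12 were tested between the LPS+ headings. There 9 were higher under tlr4f/f-lysM-cre and none was lower, with a median log2 fold change of 3.50, beside 10.8% and 10.9% of all genes and a median of -0.02. Ccl5, a ligand of Ccr1 and Ccr3, was at 8.17, 8.17 and 4.82 CPM under LPS+ tlr4f/f and at 652, 726 and 468 under LPS+ tlr4f/f-lysM-cre (log2 fold change 6.46, adjusted p = 4.47e-05). Ccl12, a ligand of Ccr2, was at 0.105, 0.358 and 0.224 CPM in the former and at 11.95, 10.3 and 8.98 in the latter (log2 fold change 5.53, adjusted p = 2.43e-09), in the comparison in which Ccr2 fell. Between the LPS- headings 4 of 12 were higher under tlr4f/f-lysM-cre and none was lower, with a median of 4.44, beside 9.25% and 7.81% of all genes and a median of -0.08. The largest changes among those that passed were those of Ccl3 (log2 fold change 6.46, adjusted p = 0.00101) and Ccl4 (5.74, adjusted p = 0.000739), of which the former binds Ccr1.

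Cx3cl1, the ligand of Cx3cr1, was at 1.66, 0.353 and 0.598 CPM under LPS- tlr4f/f, at 87.7, 11.1 and 33.2 under LPS- tlr4f/f-lysM-cre, at 2.18, 1.33 and 2.46 under LPS+ tlr4f/f and at 8.62, 8.96 and 9.22 under LPS+ tlr4f/f-lysM-cre. It rose between the LPS- headings (log2 fold change 5.65, adjusted p = 0.00724) and between the LPS+ headings (2.14, adjusted p = 6.81e-07), while the values of Cx3cr1 there were -4.95 and 1.85. From the LPS- to the LPS+ heading of tlr4f/f-lysM-cre 5 of 12 ligands fell and none rose, with a median of -2.15, beside 3.65% and 2.42% of all genes and a median of 0.03. Ccl12 fell by 4.15 (adjusted p = 0.00199) and Ccl7, a ligand of Ccr1, Ccr2 and Ccr3, by 3.42 on the log2 scale (adjusted p = 0.000219). Between the tlr4f/f headings none of 11 passed by edgeR, with a median of -0.65 beside -0.03. An unadjusted p below 0.05 was found for 2, to be read beside the number of all genes given above for that limit.

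Some ligands had little RNA in these libraries. Ccl19 and Ccl21a, the ligands of Ccr7, were at no more than 0.187 and 0.147 CPM in any library, and Ccl21a has near-identical copies among which its counts may be split. Ccl11, an eotaxin that binds Ccr3, reached 0.125 CPM, while Ccl5 and Ccl7, which also bind Ccr3, were above 1 CPM in 12 and 11 of the 12 libraries. Rarres2, which encodes the chemerin that Ccrl2 binds, reached 0.809 CPM, whereas Cmklr1, the signalling chemerin receptor, was at 17.9 ± 3.40 CPM under LPS+ tlr4f/f and 106 ± 14.5 under LPS+ tlr4f/f-lysM-cre (SD, n = 3). Cmklr1 rose there with Ccrl2 (log2 fold change 2.57, adjusted p = 2.42e-05). Cxcl12, the ligand of Cxcr4, was above 1 CPM in 3 of the 12 libraries, and these had the 3 highest sums of fibroblast and stroma markers. Ccl9, Ccl3 and Ccl5 had the highest means over the 12 libraries, and all of them were higher under the tlr4f/f-lysM-cre headings. Ccl9 had means of 616 CPM under LPS- tlr4f/f and 1106 under LPS+ tlr4f/f, against 3602 and 4684 under the LPS- and LPS+ tlr4f/f-lysM-cre headings. Ccl3 and Ccl5 were at 62.7 ± 25.4 and 141 ± 139 CPM under LPS- tlr4f/f and 76.8 ± 13.6 and 7.05 ± 1.93 under LPS+ tlr4f/f (SD, n = 3).

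**Figure D5:**
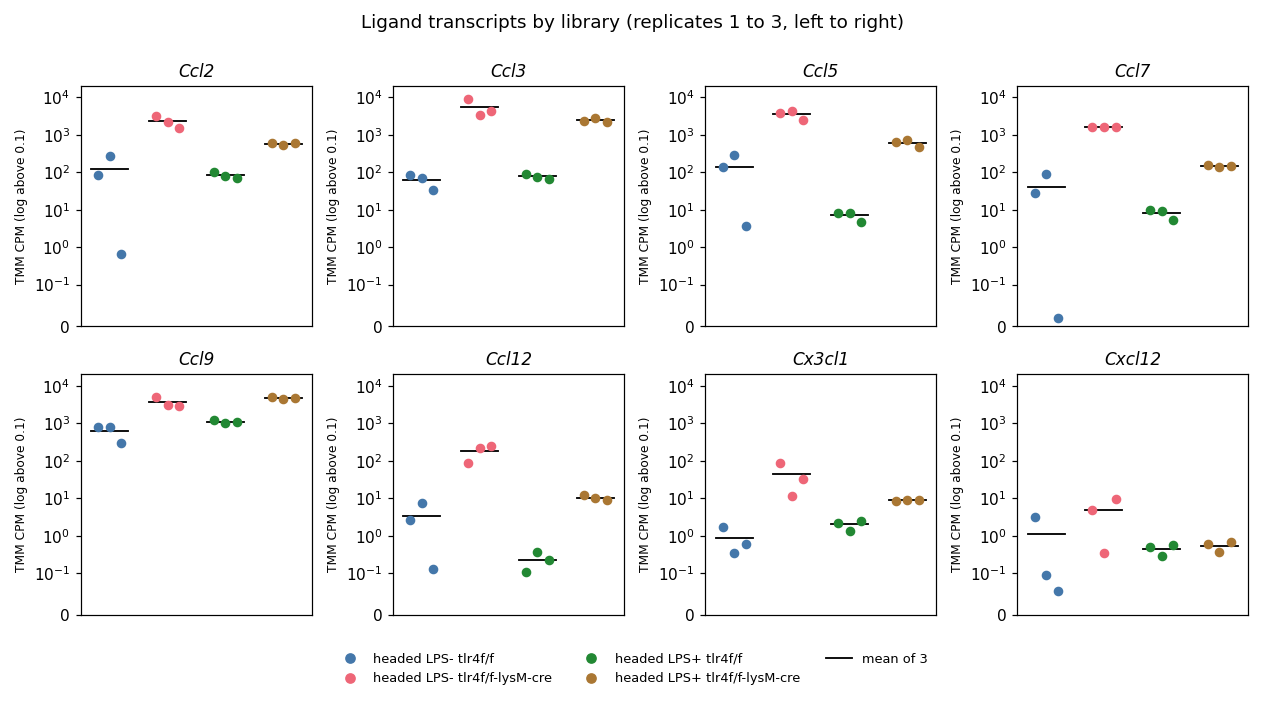
TMM CPM of 8 ligands, with 1 point per library and a line at the mean of 3, on an axis that is logarithmic above 0.1 CPM. Ccl2, Ccl3, Ccl5, Ccl7, Ccl9, Ccl12 and Cx3cl1 are higher under tlr4f/f-lysM-cre, without overlap, in both comparisons between genotype headings. Of these, Ccl3, Ccl9 and Cx3cl1 passed in both. Cxcl12 is above 1 CPM in 3 libraries headed LPS-.

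Of 17 other chemokine receptors, 4 to 7 were high enough to be tested in a comparison of 6 libraries. Between the LPS+ headings 2 of 7 were higher and 2 lower under tlr4f/f-lysM-cre, beside 10.8% and 10.9% of all genes, and between the LPS- headings 2 of 4 were higher and none lower, beside 9.25% and 7.81%. Ccr9, which guides lymphocytes to the gut, rose by 4.93 on the log2 scale between the LPS- headings (adjusted p = 0.00562) and by 4.53 between the LPS+ headings (adjusted p = 1.05e-06). Its level was low throughout, at 1 to 9 counts per library under the tlr4f/f headings and at most 3.46 CPM in any library. Xcr1, a receptor of cross-presenting dendritic cells, rose by 4.75 (adjusted p = 0.00651) and 3.62 (adjusted p = 4.98e-06), from 1 to 15 counts per library under the tlr4f/f headings, and reached 5.48 CPM. Cxcr3, known from T cells, fell by 4.21 between the LPS+ headings (adjusted p = 2.40e-06), to 2 to 6 counts per library under LPS+ tlr4f/f-lysM-cre. Cxcr2, known from neutrophils, also passed there, at 16 to 29 counts per library under tlr4f/f and 0 to 1 under tlr4f/f-lysM-cre. None of 6 passed between the tlr4f/f headings by edgeR, where 2 had an unadjusted p below 0.05, to be read beside the number of all genes given above for that limit. Of 4 tested between the tlr4f/f-lysM-cre headings none passed, beside 6.08% of all genes. There 1 had an unadjusted p below 0.05, for which the share of all genes is not given here.

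Of 12 receptors for other attractants, 10 were tested between the LPS+ headings, and 3 were higher and 4 lower under tlr4f/f-lysM-cre, with a median of 0.23, beside 10.8% and 10.9% of all genes. The formyl peptide receptors Fpr2 (log2 fold change 7.89, adjusted p = 1.13e-05) and Fpr1 (6.86, adjusted p = 1.18e-10) rose most. Their means were low under LPS+ tlr4f/f, at 0.402 and 0.297 CPM, and were 101 and 32.8 CPM under LPS+ tlr4f/f-lysM-cre. Gpr183, a receptor for oxysterols, fell by 3.37 (adjusted p = 2.82e-05), and Ltb4r1, a leukotriene B4 receptor, had 20 to 26 counts per library under tlr4f/f and 0 to 1 under tlr4f/f-lysM-cre. In the LPS- comparison, where 9.25% of all genes rose and 7.81% fell, 1 of 10 rose, which was Fpr2 (6.39, adjusted p = 0.00450), and 2 fell. These were Gpr183 (-4.41, adjusted p = 0.00479) and the C5a receptor C5ar2 (-3.34, adjusted p = 0.00291). From the LPS- to the LPS+ heading of tlr4f/f-lysM-cre 2 of 9 passed, where 2.42% of all genes rose and 3.65% fell. Both Fpr1 (-3.09, adjusted p = 0.00113) and Fpr2 (-1.51, adjusted p = 0.00289) fell. None of 10 passed between the tlr4f/f headings by edgeR, where 6 had an unadjusted p below 0.05, to be read beside the number of all genes given above for that limit. C3ar1 and C5ar1 for complement and Ptafr for platelet-activating factor had the highest means over the 12 libraries and were not called in any of the 4 comparisons.

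All 26 genes of a list that carry or end the receptor signal were tested. Between the LPS+ headings 3 rose and 6 fell, with a median of 0.12, beside 10.8% and 10.9% of all genes. Between the LPS- headings 4 rose and 5 fell, with a median of -0.0053, beside 9.25% and 7.81%. Pik3r5, a subunit of the phosphoinositide 3-kinase that G proteins activate, rose by 2.11 (adjusted p = 1.40e-11) and 2.09 (adjusted p = 0.00160) on the log2 scale. Adrbk2, a receptor kinase, rose by 1.30 (adjusted p = 3.17e-06) and 2.17 (adjusted p = 0.00337). Among regulators of G protein signalling, Rgs2 fell by 1.63 (adjusted p = 5.46e-05) and Rgs1 by 1.51 (adjusted p = 5.57e-09) between the LPS+ headings, and Rgs18 by 2.02 between the LPS- headings (adjusted p = 0.000886). Arrb1, a beta-arrestin that ends receptor signalling, fell by 3.70 between the LPS- headings (adjusted p = 0.000664) and rose by 2.71 between the tlr4f/f-lysM-cre headings (adjusted p = 0.000999), where Rgs14 fell by 1.68 (adjusted p = 0.00347). Arrb1 was also the 1 gene of the list called in the interaction (3.09, standard error 0.288, adjusted p = 0.00135), beside 1.04% of all genes. None of 26 passed between the tlr4f/f headings by edgeR, where 10 had an unadjusted p below 0.05, to be read beside the number of all genes given above for that limit. Cdc42, Gnai2 and Pik3r5 had the highest means over the 12 libraries, which for Pik3r5 came from the tlr4f/f-lysM-cre headings, at 259 ± 14.7 CPM under LPS- tlr4f/f and 161 ± 8.84 under LPS+ tlr4f/f (SD, n = 3).

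The genes most like each receptor over the 12 libraries were sought among 12216 genes with a mean of at least 1 CPM, by the root mean square difference of centred log2 CPM. For Ccr2 they were Gm15156 and Hirip3, at 0.25 and 0.30, and for Ccr1 they were Tmem26 and Clec4a2, at 0.45 and 0.48. Ccrl2 was closest to Nt5c1a at 0.58 and to Fcgr2b, the inhibitory Fc receptor, at 0.60. Fcgr2b was at 577 to 1145 CPM under LPS- tlr4f/f-lysM-cre, 196 to 223 under LPS+ tlr4f/f-lysM-cre and 12.6 to 35.6 in the 6 libraries headed tlr4f/f. Cxcr4 was closest to Cd28 and Sgsh, at 0.64 and 0.74, Ccr3 to A530064D06Rik and the fibronectin gene Fn1, at 0.68 and 0.70, and Ccr7 to the heat shock gene Hspa1a and to Hip1r, at 0.82 and 0.83. Cx3cr1 had the least similar neighbours, Tal2 and Klhl6 at 1.23 and 1.55, against a spread of its own of 2.62. All these values share the same 12 libraries and describe likeness only.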

How the data were processed

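Libraries of poly(A) RNA were sequenced by the authors as paired reads. Per the labels and the study's methods, adapters and low-quality reads were removed (Trimmomatic 0.36), reads were aligned with HISAT2 to mm10, and HTSeq counted them. The labels also name a ribosomal RNA removal kit, and the strand setting of the counting is not given in the sources used here. The deposited values are raw counts for 115140 transcripts, and the authors' table was used as deposited.

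For each gene the transcript with the highest total count over the 12 libraries was kept, which left 43131 genes and 33577087 to 56445268 counts per library. Each comparison used its 6 libraries, the interaction all 12. Genes were filtered with filterByExpr, scaled by TMM and tested with edgeR 4.0.16 (glmQLFit, glmQLFTest, robust, R 4.3.3) with Benjamini-Hochberg adjustment over all genes kept. A gene was called where it changed more than 2-fold at an adjusted p below 0.01. CPM are TMM-scaled. DESeq2 1.42.0, RLE size factors, no filter beyond 1 count, counts summed over transcripts, a replicate block, a fit of all 12 libraries, the exchanged headings, an adjusted p below 0.05 and leaving out each library were the alternatives. The scripts were tested on simulated counts. From each pathway list the text names the 3 genes with the highest mean CPM and, in each comparison, up to 2 called genes in each direction by size of change, provided that no library of the higher group had under 10 counts. For each receptor it names the 2 genes most like it. One result that this rule would name is not reported here. Cmklr1, Cx3cl1 and the genes given for their level as ligands or markers fall outside this rule and were chosen after their values were seen. The receptors, lists and tests were chosen with earlier results of these data known.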

Additional observations from a re-analysis of the deposited data

Results flagged for a closer look

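Ccrl2 and Cx3cr1 are singled out because the effect of LPS differed between the genotype headings, by the interaction term of edgeR's quasi-likelihood fit over 12 libraries at an adjusted p below 0.05. For Ccrl2 the difference was -2.26 on the log2 scale (standard error 0.581, adjusted p = 0.0434). Leaving out 1 library at a time gave -2.62 to -1.84, with adjusted p of 0.00547 to 0.118, and the lowest p and smallest difference came without replicate 1 of LPS- tlr4f/f. For Cx3cr1 the difference was 6.80 (standard error 1.68, adjusted p = 0.0379), and leaving out 1 library at a time gave 5.70 to 8.45, with adjusted p of 0.0121 to 0.113. Both values are the same when the 2 headings are exchanged. Neither passed an adjusted p of 0.01 in the fit of all libraries. With 3 libraries per group, single libraries were not tested for standing apart.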

How the results depend on the processing

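Apart from the exchange of headings, 207 of 231 values of the receptors kept their direction and their side of the limits under the other settings, 19 passed only there, 4 no longer passed and 1 turned. For other named genes 203 of 217 were kept and 14 no longer passed. The number of receptors called was 1 between the LPS- headings, and 5 by DESeq2, 4 in a fit of all 12 libraries and 3 at an adjusted p below 0.05. Between the LPS+ headings it was 5, and 3 in the fit of all 12 libraries. Between the tlr4f/f-lysM-cre headings it was 1, and 3 by DESeq2 and 2 at an adjusted p below 0.05. For the interaction it was 0, and 2 by DESeq2 and at an adjusted p below 0.05. The cause of these changes was not tested. Calls over all genes also changed between settings, over the ranges given below, and their share at each setting is not given here. The counts therefore cannot be read as particular to the receptors.

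Leaving out 1 library at a time gave 0 to 0 receptors called between the tlr4f/f headings, 0 to 2 between the tlr4f/f-lysM-cre headings, 1 to 2 between the LPS- headings, 4 to 5 between the LPS+ headings and 0 to 1 for the interaction. Of 246 such values of the receptors 225 were kept, 4 passed only there, 8 no longer passed and 9 turned, and of 186 values of other named genes 148 were kept and 38 no longer passed. Those that turned had ranges of -0.34 to 0.52 (Ccr1) between the tlr4f/f-lysM-cre headings, -0.15 to 0.29 (Ccr1) between the LPS+ headings, -0.42 to 1.35 (Ccr3) between the LPS- headings, -0.10 to 0.68 (Ccrl2) and -2.07 to 0.13 (Cxcr4) between the tlr4f/f headings, and -0.51 to 1.25 (Ccr3) and -1.13 to 1.08 (Cxcr4) for the interaction. Ccr3 turned to -0.22 without replicate 3 of LPS- tlr4f/f-lysM-cre and Ccr1 to 0.13 without replicate 2 of LPS+ tlr4f/f-lysM-cre.

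Same-numbered libraries had correlations of their deviations from -0.04 to 0.47 over 15775 genes and were not treated as pairs. With the replicate number as a block, 4 receptors were called between the LPS- headings and 5 between the LPS+ headings. The block gave 1 call between the tlr4f/f-lysM-cre headings, 0 between the tlr4f/f headings and 0 for the interaction. The share of all genes called with the block is not given here, so these counts cannot be read as particular to the receptors. Ccr1 turned to 0.058 between the tlr4f/f-lysM-cre headings.

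With the 2 headings exchanged, each comparison takes the value of another one. The number of receptors called became 1 where it was 0 between the tlr4f/f headings, 5 between the tlr4f/f-lysM-cre headings, 0 between the LPS- headings and 1 between the LPS+ headings. Values that turned became, between the tlr4f/f headings, -2.05 (Ccr2) and 0.16 (Ccr3). Between the tlr4f/f-lysM-cre headings they became 0.10 (Ccr1), -1.62 (Ccr2), 0.83 (Ccr3), 1.74 (Ccr7), 3.70 (Ccrl2), 6.86 (Fpr1), 7.89 (Fpr2), 5.53 (Ccl12), 4.21 (Ccl7), -0.61 (Arrb1) and 0.18 (Rgs14). Between the LPS- headings they became 0.43 (Ccr2), -1.20 (Ccr3), -3.04 (Fpr2), -0.65 (Ccl4), -0.66 (Pik3r5) and 0.24 (Rgs18). Between the LPS+ headings they became -0.055 (Ccr1), 0.84 (Ccr2), -0.55 (Ccr3), -2.80 (Ccr7), -1.97 (Ccrl2), -0.44 (Ccr9), -0.70 (Xcr1), -3.09 (Fpr1), -1.51 (Fpr2), 0.32 (Gpr183), -4.15 (Ccl12), -2.50 (Ccl5), -0.66 (Pik3r5), -0.75 (Adrbk2), 1.61 (Rgs2) and -2.30 (Cx3cl1).

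Over all genes, calls were beyond 1.5 times in 13 of 33 settings and 18 of 36 fits without 1 library. Leaving out 1 library gave 0 to 184 calls between the tlr4f/f headings, 4 to 1178 between the tlr4f/f-lysM-cre headings, 1038 to 1682 between the LPS- headings, 3017 to 3152 between the LPS+ headings and 10 to 306 for the interaction. The lowest and highest calls of the other settings were 0 and 2497 (main 0) between the tlr4f/f headings, 212 and 3161 (main 865) between the tlr4f/f-lysM-cre headings, 0 and 4251 (main 2497) between the LPS- headings, 865 and 3507 (main 3161) between the LPS+ headings and 128 and 634 (main 164) for the interaction. Of the latter, 104 were higher and 60 lower with TMM, and 64 and 80 with RLE size factors. Ccr7, at 0 to 323 counts, was the receptor most limited by depth.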
